A study of Bubalus bubalis with 6 samples.

Results

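The genes described here are the AP-1 transcription factors of the Fos and Jun families, with EGR1, MYC and ATF3, in buffalo (Bubalus bubalis) muscle stem cells (MuSCs). They were taken by symbol from the deposited gene table: FOS, FOSB, FOSL1, FOSL2, JUN, JUNB, JUND, EGR1, MYC and ATF3. The table holds 24616 genes, and 9 of the 10 symbols were found in it. JUND is not listed by that symbol, so no value is given for it. All 9 genes passed the filter of at least 10 counts in total, which left 15576 genes for the test.

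PolyA-selected RNA was sequenced from 6 samples. The 3 GM samples are primary MuSCs from fetal longissimus muscle in the proliferation phase, kept in growth medium with fetal bovine serum. The 3 DM samples are the same kind of cells in the differentiation phase, after a change to a low-serum medium with horse serum at near confluence. No genetic change is named for either group, and the change of serum, the cell density and the differentiation itself cannot be told apart in this design. The labels do not say whether samples of a group came from separate cultures or fetuses, so p-values measure only the spread between these samples. The DM samples were taken days after that switch. How long before harvest the medium of either group was last renewed, which matters for immediate early genes, is not given in the sources used here.

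AP-1 is a dimer of a Fos and a Jun protein, or of 2 Jun proteins, that binds DNA through a basic leucine zipper (bZIP). FOS, FOSB, JUN, JUNB and EGR1 are immediate early genes: serum or growth factors switch them on within minutes through existing kinases. Their messages are short-lived, and for FOS and EGR1 the induction runs through the factors SRF and ELK. MYC pairs with MAX and drives ribosome production and cell growth, and it is high in dividing cells. In muscle precursors, AP-1 and MYC are best known for keeping cells in the cycle and for opposing the myogenic factors.

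The samples held between 35615864 and 40305237 gene counts. The 10 most abundant genes took 8.14 to 8.59% of the counts in GM, and 16.4 to 18.4% of the counts in DM samples. DM replicate 3 stood further from its group than the others: a chi-square over genes divided by its degrees of freedom was 40.5 to 41.4 for its pairs and 6.22 to 11.7 for the other pairs. Levels are given as CPM, the counts relative to the library's total after TMM scaling, when a gene is compared between samples, and as the deposited RPKM, which divides by gene length, when genes are compared with each other. Fold changes and adjusted p-values come from the edgeR quasi-likelihood test with Benjamini-Hochberg adjustment over all genes tested. A gene was called when its log2 fold change (DM over GM) exceeded 1 in size and its adjusted p was under 0.05.

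Of the 9 genes, 3 were called: FOS and FOSB were higher and FOSL1 was lower in DM samples. Across all genes tested 25.3% were called, 15.0% higher and 10.3% lower. Another 3 genes, JUN, JUNB and MYC, were lower in DM samples with an adjusted p under 0.05 but by less than 2-fold, and this looser rule was met by 63.0% of all genes tested. FOSL2, ATF3 and EGR1 did not pass. The GM and DM values did not overlap for 6 of the 9 genes, against 68.8% of all genes tested, a share close to that background. Their median log2 fold change was -0.08, beside 0.025 for all genes tested. The direction differed between the 9 genes, also within the Fos family. Without DM replicate 3, the sample that stood apart, FOS (2.33), FOSB (2.76) and FOSL1 (-2.89) were still called, and the log2 fold changes of JUN, JUNB and MYC were -0.58, -0.60 and -0.92.

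**Figure D1:**
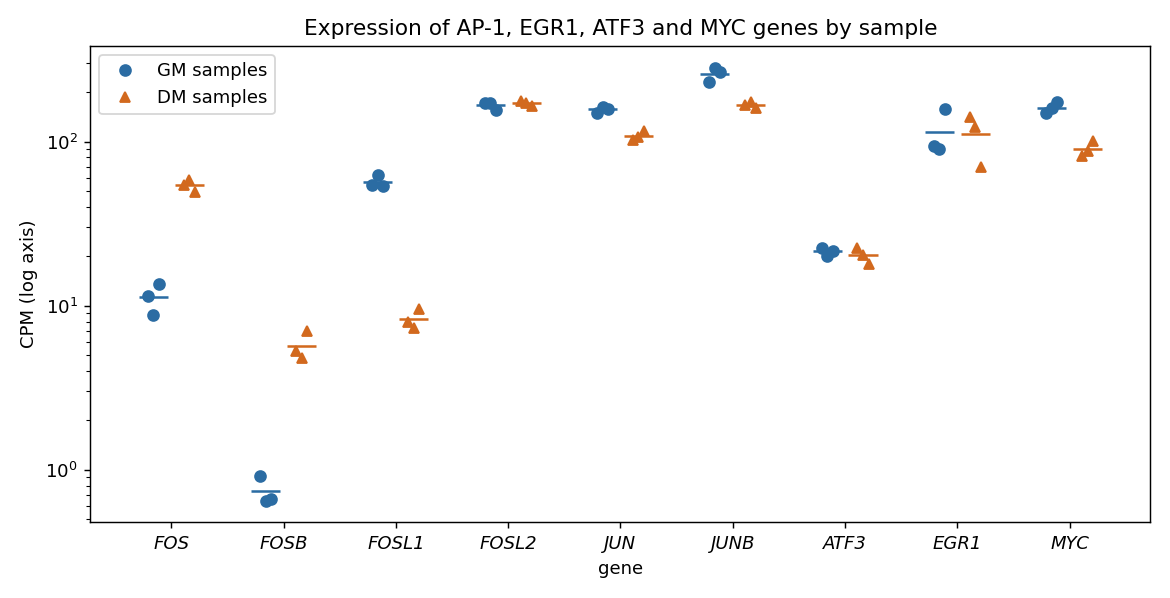
Level of each of the 9 genes in CPM on a log axis, with 1 point per sample (circles GM, triangles DM) and a bar at each group mean. The groups are apart for FOS, FOSB, FOSL1, JUN, JUNB and MYC and overlap for FOSL2, ATF3 and EGR1; EGR1 has the widest spread within both groups, from 89.8 to 157 CPM in GM and from 70.4 to 141 CPM in DM.

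FOS encodes the founding member of the Fos family, a potent activator when paired with a Jun protein. The gene (ENSBTAG00000004322, chromosome 10, 86883739 to 86887169, plus strand, in the coordinates of the table) had 478, 363 and 516 counts in GM samples and 1843, 2140 and 1816 in DM samples. In CPM this was 11.5, 8.73 and 13.6 against 54.6, 58.5 and 49.1. The lowest DM sample stood well above the highest GM sample. The means were 11.3 ± 2.45 and 54.0 ± 4.72 CPM (SD, n = 3 each), a 4.79-fold rise (log2 fold change 2.26, SE 0.14, adjusted p = 2.47e-07). Its spread between samples of a group was larger than that of 86.5% of the 12459 genes whose mean reached 1 CPM. The gene best known as switched on by serum was thus higher in the low-serum samples.

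FOSB, the relative of FOS that is also made as a shortened form, moved the same way from a far lower level. It is annotated on chromosome 18, 53501995 to 53508395, plus strand (ENSBTAG00000008182). Its counts were 38, 27 and 25 in GM samples and 178, 175 and 261 in DM samples. The mean rose 7.65-fold, from 0.742 ± 0.151 to 5.70 ± 1.20 CPM (SD, n = 3 each), with no overlap (log2 fold change 2.94, SE 0.24, adjusted p = 1.96e-06). The GM level rests on 25 to 38 reads per sample, and the 95% interval of the log2 fold change was from 2.40 to 3.48. The table holds 1 transcript for the gene, so its isoforms cannot be told apart here.

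FOSL1 encodes FRA-1, a Fos protein that lacks the transactivation domain of FOS and is often high in proliferating and migrating cells. The gene (ENSBTAG00000006194, chromosome 29, 44673879 to 44679325, minus strand) had 2258, 2617 and 2043 counts in GM samples. In DM samples it had 268, 269 and 355. The values were 54.4, 62.9 and 53.9 CPM against 7.93, 7.35 and 9.59 CPM, again without overlap. The mean was 6.88-fold lower in DM samples, 57.1 ± 5.05 against 8.29 ± 1.16 CPM (SD, n = 3 each; log2 fold change -2.78, SE 0.11, adjusted p = 1.39e-08). The 3 called genes are thus all Fos genes, of which FOS and FOSB rose and FOSL1 fell, in the same libraries.

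FOSL2, which encodes FRA-2, was the steady member of the family. It lies on chromosome 11, 71329772 to 71349193, minus strand (ENSBTAG00000023929). Its levels were 171, 173 and 155 CPM in GM samples and 176, 171 and 164 CPM in DM samples, with overlapping groups. The log2 fold change was 0.035 (SE 0.065, adjusted p = 0.664), with a 95% interval from -0.11 to 0.18. The interval allows no change as large as that of any other Fos gene. FOSL2 was also quiet between replicates, with a spread larger than that of 19.6% of genes.

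**Figure D2:**
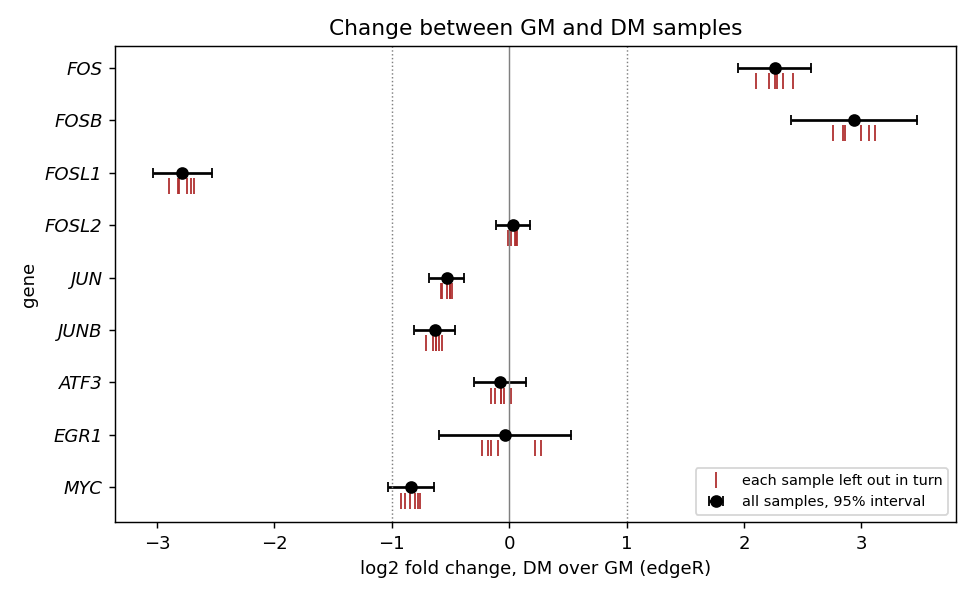
Log2 fold change of each gene (DM over GM) with its 95% interval over all 6 samples (black), and the value with each sample left out in turn (red ticks); dotted lines mark the 2-fold threshold. FOS and FOSB lie above 1, FOSL1 lies under -1, JUN, JUNB and MYC lie between -1 and 0, and the intervals of FOSL2, ATF3 and EGR1 include 0.

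These opposite moves changed which Fos message was abundant per length. In GM samples FOSL1 held 48.5 ± 1.95% and FOSL2 47.5 ± 1.5% of the summed RPKM of the 4 Fos genes, while FOS held 3.81 ± 1.02% and FOSB 0.162 ± 0.035% (SD, n = 3). In DM samples FOSL2 held 64.9 ± 0.86%, FOS 24.1 ± 1.69%, FOSL1 9.42 ± 1.55% and FOSB 1.66 ± 0.39%. For each of these 4 shares the GM and DM values did not overlap. The RPKM of FOSL2 itself was 70.1 ± 4.03 in GM and 67.1 ± 2.01 in DM samples, with overlapping groups, so its larger share came with the smaller sum. For each of the 4 shares the exact two-sided permutation test gave p = 0.1, the smallest that 3 against 3 samples allow. It became 0.15 when the 6 Fos and Jun shares were adjusted together (Benjamini-Hochberg), so no share could pass a 0.05 threshold. The shares of a family are parts of a fixed whole, so the 6 tests are not independent, and those of JUN and JUNB mirror each other. The RPKM of FOSL1 was 12.0, 18.3 and 10.1 times that of FOS in the GM samples and 0.370, 0.320 and 0.497 times that of FOS in the DM samples, which reverses their order in every sample. The summed RPKM of the 4 genes was 148 ± 7.96 in GM and 103 ± 2.56 in DM samples.

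The size of these shares depends on the lengths in the table, where FOSL1 is the shortest of the 4 at 824 bases, against 2096 for FOS, 3218 for FOSB and 2456 for FOSL2. Without division by length, in CPM, the share of FOSL1 differed by -20.7 percentage points in place of -39.1. The share of FOSL2 then differed by 0.83 in place of 17.3 percentage points (70.6% in GM, 71.5% in DM, exact permutation p = 0.4), with overlapping groups. The shares of FOS and FOSB kept their direction and their separation. The order of FOS and FOSL1 was reversed on this scale too, from 11.3 against 57.1 CPM to 54.0 against 8.29 CPM.

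**Figure D3:**
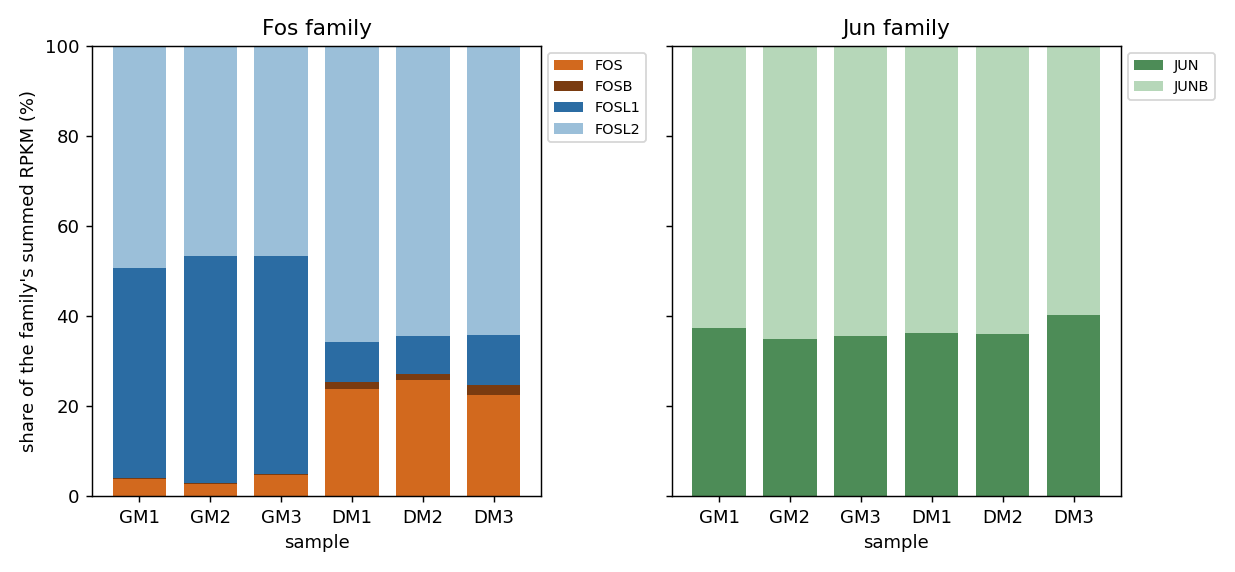
Share of each gene in the summed RPKM of the Fos family (left: FOS, FOSB, FOSL1, FOSL2) and of the listed Jun genes (right: JUN, JUNB) in each sample; bars stack to 100%. FOSL1 takes 46.7 to 50.5% of the Fos family in GM bars and 8.27 to 11.2% in DM bars, FOS takes 22.5 to 25.9% in DM samples, and the Jun shares overlap between the groups.

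The Jun genes encode the partners that every Fos protein needs. JUN (ENSBTAG00000004037, chromosome 3, 87841042 to 87843087, plus strand), the strongest activator among them, had 149, 163 and 158 CPM in GM samples. In DM samples it had 103, 106 and 116 CPM. The groups did not overlap, and the DM mean was 30.9% lower (108 ± 7.14 against 157 ± 7.06 CPM; log2 fold change -0.53, SE 0.068, adjusted p = 5.40e-05). JUNB (ENSBTAG00000012046, chromosome 7, 13851131 to 13852933, minus strand), a weaker activator that can restrain JUN, had 231, 282 and 264 CPM in GM samples and 167, 174 and 160 CPM in DM samples. Its DM mean was 35.6% lower (167 ± 6.77 against 259 ± 25.8 CPM; log2 fold change -0.63, SE 0.078, adjusted p = 3.90e-05), again with no overlap. Neither difference reached 2-fold, and the 95% intervals, -0.69 to -0.38 for JUN and -0.81 to -0.46 for JUNB, stayed within it.

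The balance between the listed Jun genes moved little. JUN held 35.9 ± 1.29% of their summed RPKM in GM and 37.5 ± 2.32% in DM samples, with overlapping groups (exact permutation p = 0.4), and JUNB held the rest. Their summed RPKM was 232 ± 18.0 in GM and 143 ± 5.21 in DM samples. The summed RPKM of the Fos genes over that of the Jun genes was 0.691, 0.629 and 0.594 in GM and 0.751, 0.716 and 0.700 in DM samples. On this scale both sums were lower in the DM samples, and the ratio was higher in each DM sample than in any GM sample (exact permutation p = 0.1). For such sums CPM differs from RPKM in its TMM scaling as well as in leaving out length. The TMM factors were 1.03 to 1.04 in GM and 0.948 to 0.983 in DM samples, and the 2 effects on the sums were not separated. Scaling of a whole sample cancels in the ratio, so the ratio differs between CPM and RPKM by length alone. In CPM the sum of the Fos genes was no longer lower. It was 236 ± 10.9 CPM in GM and 239 ± 7.61 CPM in DM samples, with overlapping groups (exact permutation p = 0.7). The sum of the Jun genes was 416 ± 32.9 and 276 ± 5.17 CPM, and the ratio was 0.568 ± 0.051 in GM and 0.866 ± 0.038 in DM samples, both without overlap (exact permutation p = 0.1). JUND, the Jun gene known for its steady level in resting cells, is missing from these sums.

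ATF3 encodes a stress-induced bZIP factor that pairs with Jun proteins and mostly represses. It was annotated on chromosome 16, 72820026 to 72832974, minus strand (ENSBTAG00000008545). Its levels were 22.4, 20.2 and 21.6 CPM in GM samples and 22.5, 20.4 and 17.9 CPM in DM samples, with overlap. The log2 fold change was -0.079 (SE 0.099, adjusted p = 0.506; 95% interval -0.30 to 0.14), and its sign turned, to 0.011, without DM replicate 3.

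EGR1 encodes a zinc finger factor that, like FOS, responds to serum through SRF and ELK. The gene (ENSBTAG00000010069, chromosome 7, 51438727 to 51442500, plus strand) had 3899, 3738 and 5970 counts in GM samples and 4753, 4485 and 2605 in DM samples. The means were nearly equal, 114 ± 37.9 and 111 ± 36.5 CPM (SD, n = 3 each), but the samples behind them were not. GM replicate 3 was at 157 CPM beside 94.0 and 89.8, and DM replicate 3 was at 70.4 CPM beside 141 and 123. The pooled SD of log2 CPM within groups was 0.488, larger than that of 98.2% of the genes whose mean reached 1 CPM, for which the median was 0.114. The log2 fold change was -0.033 (SE 0.25, adjusted p = 0.919), with a 95% interval from -0.59 to 0.53. It turned to 0.27 without GM replicate 3 and to 0.22 without DM replicate 3, so these samples give no direction for EGR1.

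FOS was also highest in GM replicate 3 and lowest in DM replicate 3 within its groups. This order was found in 2 of the 9 genes and in 5 of 42 other immediate early genes (11.9%: CYR61, DUSP1, HBEGF, NR4A1 and SGK1), beside 11.2% of all genes tested. EGR1, whose values set the order, is 1 of the 2 members counted. Among the other immediate early genes this joint order was about as frequent as among all genes. Taken singly, GM replicate 3 was highest in 19 of these 42 genes, beside 4767 of all 15576. DM replicate 3 was lowest in 13 and highest in 22 of the 42, beside 5713 and 5873 of all 15576.

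MYC (ENSBTAG00000008409, chromosome 14, 13769244 to 13774438, minus strand) had 6194, 6613 and 6557 counts in GM samples and 2756, 3198 and 3718 in DM samples. In CPM these were 149, 159 and 173 against 81.6, 87.4 and 100. All DM samples lay under all GM samples. The DM mean was 44.0% lower, 89.8 ± 9.67 against 160 ± 11.9 CPM (SD, n = 3 each; log2 fold change -0.84, SE 0.087, adjusted p = 1.10e-05). The 95% interval, -1.03 to -0.64, includes the 2-fold threshold, so MYC lies next to the boundary of what was called.

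Per length, JUNB was the most abundant of the 9 messages in both groups, at 149 ± 14.5 RPKM in GM and 89.6 ± 4.57 RPKM in DM samples (SD, n = 3). In GM samples it was followed by JUN at 83.2, MYC at 75.2, FOSL1 at 71.7 and FOSL2 at 70.1 RPKM, and each of these neighbours overlapped the next. EGR1 at 38.2, ATF3 at 11.1, FOS at 5.57 and FOSB at 0.238 RPKM came last. In DM samples the order after JUNB was FOSL2 at 67.1, JUN at 53.8, MYC at 39.4, EGR1 at 34.8, FOS at 24.9, ATF3 at 9.81, FOSL1 at 9.73 and FOSB at 1.71 RPKM. There MYC overlapped EGR1, EGR1 overlapped FOS, and ATF3 overlapped FOSL1. Among the 24616 genes of the table FOS stood at rank 8783 by RPKM in GM and 3406 in DM samples, and FOSL1 at rank 1390 and 6829. None of the 9 overlapped another listed gene, and each had 1 mRNA transcript whose counts were identical to those of the gene. A fit over mRNA transcripts called the same 3, beside 25.6% of all transcripts tested.

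Other bZIP factors were listed too, some of which share partners or sites with AP-1. Of 28 tested, 5 were called higher and 1 was called lower, beside 15.0% and 10.3% of all genes tested. The median log2 fold change was 0.19. ATF5, a factor of the stress response, rose from 24.1 to 103 CPM (log2 fold change 2.10), and DBP, a circadian factor, rose from 0.996 to 3.68 CPM (log2 fold change 1.88). JDP2, a repressive partner of Jun proteins, had a log2 fold change of 0.18 (adjusted p = 0.0441) and was not called, being under 2-fold.

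The other immediate early genes moved in both directions. Of 42 tested, 5 were called higher and 11 lower, beside 15.0% and 10.3% of all genes tested, and the median was -0.34. ID1, an inhibitor of the myogenic bHLH factors, fell from 84.9, 117 and 109 CPM to 10.3, 13.2 and 3.16 CPM (log2 fold change -3.55, SE 0.36, adjusted p = 9.02e-06). LIF, a cytokine that supports myoblast growth, had a log2 fold change of -3.06, and DUSP5, a nuclear ERK phosphatase, one of -2.92. Close relatives differed in sign here as well, and they are named after their values were seen. EGR2 was higher in DM samples (log2 fold change 1.86, 2.07 ± 0.705 to 7.49 ± 2.66 CPM), whereas EGR3 was lower (log2 fold change -1.89, 4.09 ± 0.602 to 1.10 ± 0.385 CPM). Both were called, at adjusted p = 0.000275 and 0.000115.

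Among the kinases and coregulators upstream of these genes, 4 of 34 were called higher and 2 lower, beside 15.0% and 10.3% of all genes tested, and the median was -0.08. The p38 kinase genes MAPK11 and MAPK12, of which MAPK12 is a muscle isoform, rose from 4.62 to 41.3 CPM (log2 fold change 3.16) and from 15.0 to 70.2 CPM (log2 fold change 2.22). RPS6KA1, a ribosomal S6 kinase activated by ERK, fell from 16.9 to 3.01 CPM (log2 fold change -2.49). SRF itself was lower in DM samples but not called (log2 fold change -0.90, adjusted p = 8.93e-07), and the ETS factor gene ELK3 was called lower (log2 fold change -1.39); both are named after their values were seen.

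Regulators of the turnover of AP-1 and MYC and of feedback on their kinases numbered 21 in the test, of which 3 were called higher and 7 lower, beside 15.0% and 10.3% of all genes tested. Their median was -0.29. SPRY4, an ERK feedback inhibitor, fell from 35.5 ± 0.472 CPM to 1.69, 1.28 and 3.24 CPM (log2 fold change -4.09, SE 0.24, adjusted p = 1.43e-07). The genes of the MAP kinase phosphatases DUSP4 and DUSP8 had log2 fold changes of -2.93 and -2.74.

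Of 18 textbook AP-1 targets, 8 had a lower and 2 a higher called value in DM samples, beside 10.3% and 15.0% of all genes tested, and their median log2 fold change was -1.0. IL11, a cytokine, fell from 65.4 to 1.13 CPM (log2 fold change -5.84, adjusted p = 6.88e-10). MMP13, a collagenase, went the other way, from 0.265, 0.120 and 0.264 CPM to 4.38, 4.78 and 15.1 CPM (log2 fold change 5.21, adjusted p = 1.79e-05). DM replicate 3 held the highest of its values. Whether the Fos and Jun proteins act on these genes in these cells was not tested.

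Of 16 partners and cofactors of MYC tested, 2 were called higher and 3 lower, beside 15.0% and 10.3% of all genes tested, and the median was 0.029. MXD4, which competes with MYC for MAX, rose from 11.2 ± 0.506 to 33.6 ± 2.25 CPM (log2 fold change 1.58, SE 0.085, adjusted p = 8.81e-08). RUVBL2 and RUVBL1, helicase cofactors of MYC, had log2 fold changes of -1.53 and -1.19. MAX, the obligate partner, was at 19.5 ± 0.394 and 20.8 ± 2.89 CPM with overlapping groups (log2 fold change 0.09, adjusted p = 0.485).

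The textbook targets of MYC moved in 1 direction. Of 31 tested, 12 were called lower and 0 higher, beside 10.3% and 15.0% of all genes tested, and the median was -0.89. At an adjusted p under 0.05 with no minimum fold change, 29 of the 31 were lower, against 31.4% of all genes tested, and 0 were higher, against 31.6%. DESeq2 at the same thresholds also called 0 of them higher. CDC25A, a phosphatase that drives the cell cycle, fell from 24.9 ± 0.796 to 6.92 ± 0.571 CPM (log2 fold change -1.84, SE 0.098, adjusted p = 7.97e-08). SRM, the spermidine synthase gene, fell from 96.3 to 30.8 CPM (log2 fold change -1.65), and NOP56, a nucleolar protein gene, fell from 232 to 93.0 CPM (log2 fold change -1.32). The list holds nucleolar, nucleotide and cell cycle genes that are high in any dividing cell, and how far MYC itself sets their level was not tested.

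**Figure D4:**
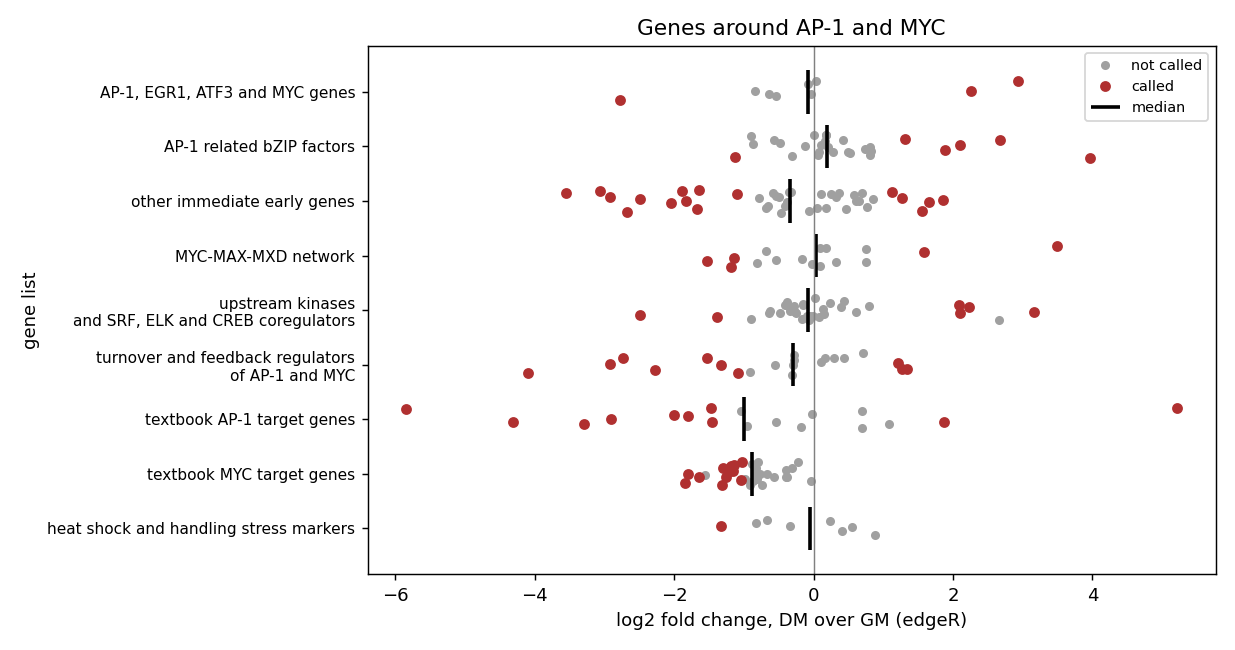
Log2 fold change (DM over GM) of every tested gene in the 9 genes described and in 8 related lists; red points were called, grey points were not, and black bars mark medians. The lists of AP-1 targets (median -1.0) and MYC targets (median -0.89) lie to the left, the others have medians between -0.34 and 0.19.

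Heat shock and handling stress genes can rise together with AP-1 genes in disturbed cells. Of 8 tested, edgeR called 0 higher and 1 lower, beside 15.0% and 10.3% of all genes tested. The gene called was HSPA8, a constitutive chaperone (2788 ± 31.6 to 1111 ± 16.9 CPM, log2 fold change -1.33). With no minimum fold change, 3 were higher and 4 lower at an adjusted p under 0.05, beside 31.6% and 31.4% of all genes tested. The median was -0.05. With DM replicate 1 or DM replicate 3 left out, 2 were called, 1 in each direction. The 8 tested were HSPA1L, HSPA5, HSPA8, HSPB1, HSPH1, DNAJA1, HERPUD1 and XBP1. Whether handling acted on FOS or FOSB was not tested.

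Markers of the cell types that a muscle culture can hold moved with the same comparison. Their calls stand beside 15.0% called higher and 10.3% called lower among all genes tested. An adjusted p under 0.05 was met by 63.0% of all genes tested, and 68.8% had groups that did not overlap. The 13 listed myogenic markers summed to 1431 to 1776 RPKM in GM and 4902 to 7134 RPKM in DM samples, with 8 called higher and 1 lower. The 10 fibroblast markers, led by COL1A1 and COL3A1, summed to 8186 to 8402 RPKM in GM and 21150 to 26267 RPKM in DM samples, with 7 of 9 tested called higher. Smooth muscle and pericyte markers summed to 1229 to 1310 and 699 to 759 RPKM, with 0 of 6 called by edgeR and 3 at an adjusted p under 0.05. Endothelial markers summed to 2.02 to 2.33 RPKM in GM and to 2.40 to 3.79 RPKM in DM, with 3 of 6 called, 1 of them higher. Immune markers summed to 5.70 to 6.64 and 4.97 to 6.33 RPKM, with overlap, and 2 of 5 were called, 1 higher. Adipocyte markers summed to 2.16 to 2.45 RPKM in GM and, without overlap, to 0.891 to 1.14 RPKM in DM, with 2 of 5 called, 1 higher. This lower sum followed PPARG, called lower (log2 fold change -3.73), the only one not under 1 RPKM in every sample. FABP4 was called higher (log2 fold change 4.38, from 0.017 to 0.411 CPM), and the median of the 5 was 0.69. No listed marker was at 0 in all samples, but PECAM1, CDH5, KDR and VWF, PTPRC and CSF1R, and ADIPOQ and PLIN1 were under 1 RPKM in every sample. The part of the myogenic and fibroblast markers in the results for FOS, FOSB, FOSL1, JUN, JUNB and MYC was not tested, and in bulk samples fewer cells of a type and less RNA per cell cannot be told apart.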

How the data were processed

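PolyA-selected libraries of 6 samples (3 GM, 3 DM) were sequenced by the submitters. Gene and mRNA transcript tables deposited by the authors hold raw read counts and RPKM per sample, the RPKM being the counts scaled by gene length and total counts. The methods name HISAT2 and a buffalo genome, the submitters' processing notes list Bowtie 0.12.2 with builds mm8 and mm9, and the tables carry cattle Ensembl identifiers. The build of the coordinates and the strand setting are not given in the sources used here, so levels of any gene with an antisense neighbour are uncertain. The authors' own comparison lists and the non-coding RNA table were not used, and 0 sample columns were left unmapped.

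Counts were analysed with edgeR 4.0.16 in R 4.3.3 (TMM, quasi-likelihood test, genes with at least 10 counts in total, no covariate). DESeq2 1.42.0, other normalisations, filters and thresholds, a replicate block and leaving out each sample were the alternatives. RPKM shares were compared with exact permutation tests in scipy 1.17.1. Deviations of samples sharing a number correlated at -0.0105, -0.0467 and -0.00813 (log2 CPM, pseudocount 0.5). These values show no pairing by number, but they cannot exclude a shared culture or fetus, which the labels do not give. The scripts were tested on simulated data. The members and the gene lists were chosen with earlier results of these data known. Text names all members and, per list, up to 3 called genes with the largest change whose mean reached 1 CPM and whose groups did not overlap (some that met this rule are not reported here); any other gene named with a value was chosen after its values were seen. Precision is limited by 3 samples per group and, for FOSB in GM, by low counts.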

Additional observations from a re-analysis of the deposited data

How the results depend on the processing

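FOS, FOSB and FOSL1 were called under each alternative, DESeq2 included. With no minimum fold change, 6 of the 9 genes passed (2 higher, 4 lower), beside 63.0% of all genes tested. The counts rose to 17 of 28 for the bZIP factors, 35 of 42 for the other immediate early genes and 10 of 16 for the MYC network. They were 22 of 34 for the upstream kinases and coregulators, 19 of 21 for the turnover and feedback regulators and 29 of 31 for the MYC targets. The heat shock genes had 7 of 8 and the smooth muscle markers 3 of 6. When tested against 2-fold, the endothelial and the immune markers had 1 call each, beside 2293 of all 15576 genes tested. The log2 fold change of FOSL2 turned to -0.064 with library size alone and to -0.013 without GM replicate 3, that of ATF3 to 0.011 without DM replicate 3, and that of EGR1 to 0.27 without GM replicate 3 and 0.22 without DM replicate 3. None of these passed in the alternatives of the gene fit (adjusted p from 0.392 to 0.894 for FOSL2, 0.135 to 0.923 for ATF3 and 0.155 to 0.956 for EGR1), and the cause was not tested. In TMM-scaled CPM without division by length, chosen after seeing the data, the sum of the Fos genes was 1.26% higher in DM. In RPKM, which divides by length and has no TMM scaling, it was 29.9% lower.

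With each sample left out in turn, the log2 fold changes ranged from 2.10 to 2.42 for FOS, 2.76 to 3.12 for FOSB, -2.89 to -2.69 for FOSL1, -0.013 to 0.069 for FOSL2, -0.15 to 0.011 for ATF3 and -0.23 to 0.27 for EGR1. The number of heat shock genes called ranged from 1 to 2, and that of immune markers from 1 to 2 (1 without GM replicate 1 or GM replicate 2).

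The replicate block left 3 of the 9 genes called and 3837 genes in all, beside 3936 without it. The labels do not say whether the numbers pair the samples. The mRNA transcript fit used the same counts for the 9 members as the gene fit, so its calls are not a second measurement. It called 3 of the 9 members (25.6% of all transcripts) and 4 with library size alone, where MYC reached -1.01. There ATF3 had an adjusted p of 0.0425 at a log2 fold change of -0.25 (0.0425 to 0.939 over the transcript fits).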
